A study of Mus musculus with 2 samples.

Results

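Calprotectin-low neutrophils were described from 3′ single-cell RNA sequencing of mouse splenocytes, sorted for CD45.2 and CD11b, with 1 high-B12 and 1 low-B12 library. The members were chosen cell by cell from their own transcripts, and 1188 of 13258 cells qualified, 819 of 6748 in the high-B12 library and 369 of 6510 in the low-B12 library. A cell was a barcode with at least 500 unique molecular identifiers (UMIs, each 1 counted RNA molecule), at least 200 genes and at most 10% mitochondrial UMIs. A member held at least 4 UMIs summed over Csf3r, Cxcr2, Il1r2 and Hdc, and under 10% of its UMIs came from the calprotectin genes S100a8 and S100a9. Members also had under 0.2% of UMIs from Camp, Ngp and Ltf, under 5 UMIs over Rsad2, Ifit1, Ifit3, Isg15 and Slfn4, and 0 UMIs of Cd79a, Cd79b, Ncr1 and Csf1r. These 18 genes chose the cells, so their levels are given below as description only.

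CD45.2 marks leukocytes that carry a particular allele of CD45, and CD11b is the integrin chain encoded by Itgam. Both treatments used splenocytes that had been viably frozen before sorting, per the labels. The labels name the treatments only as high or low B12 and say nothing of genotype, strain, age, dose, duration or number of mice, while the series title places them in work on Tet2-deficient blood formation. With 1 library per treatment no test between treatments was possible, and treatment cannot be told apart from any other difference between the libraries. Each interval given is a 95% interval and covers counting error only. The libraries shared 4 cell barcodes, 1 of them among the members of each library.

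Neutrophils are short-lived granulocytes that mature in the bone marrow, making granule proteins in sequence before they leave for blood and tissues. Csf3r encodes the receptor for G-CSF, the cytokine that drives their production, and Cxcr2 encodes a receptor for chemokines that draw mature neutrophils out of the marrow. Calprotectin, the S100a8 and S100a9 dimer, binds metal ions and is among the most abundant proteins of the neutrophil cytosol. Il1r2 encodes a decoy receptor for interleukin 1, and Hdc the enzyme that makes histamine.

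Calprotectin-low neutrophils made up 12.1% of high-B12 cells (exact binomial interval 11.4 to 12.9%) and 5.67% of low-B12 cells (5.12 to 6.26%), a difference of 6.47 points (5.51 to 7.43). The wider set of marker-positive cells, called granulocytes here, differed more. Cells that met the 4-gene marker limit and lacked the Cd79a, Cd79b, Ncr1 and Csf1r transcripts made up 35.2% of high-B12 cells (2378 cells) and 11.9% of low-B12 cells (777 cells). Within these marker-positive granulocytes the calprotectin-low cells were a smaller part in the high-B12 library, at 34.4% (32.5 to 36.4%), than in the low-B12 library, at 47.5% (43.9 to 51.1%), a difference of −13.0 points (−17.0 to −9.06). The size of both differences depended on the calprotectin limit: at 5% in place of 10% they were 4.32 points of all cells and −3.58 points of marker-positive granulocytes.

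The limit of 10% did not fall in a gap. In the high-B12 library 68 members lay at 9 to 10% calprotectin and 62 otherwise matching cells at 10 to 11%, and in the low-B12 library 38 and 40 cells did. The median calprotectin share was 3.95% in high-B12 members and 4.91% in low-B12 members, against 13.6% and 9.84% over all marker-positive granulocytes of the same libraries. At the marker limit 20 high-B12 and 8 low-B12 members had exactly 4 UMIs, and 13 and 17 otherwise matching cells had 3. At the interferon limit 30 high-B12 and 9 low-B12 members had 4 UMIs, and 18 and 7 otherwise matching cells had 5. The members are therefore the lower end of a continuous range of calprotectin RNA.

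**Figure D1:**
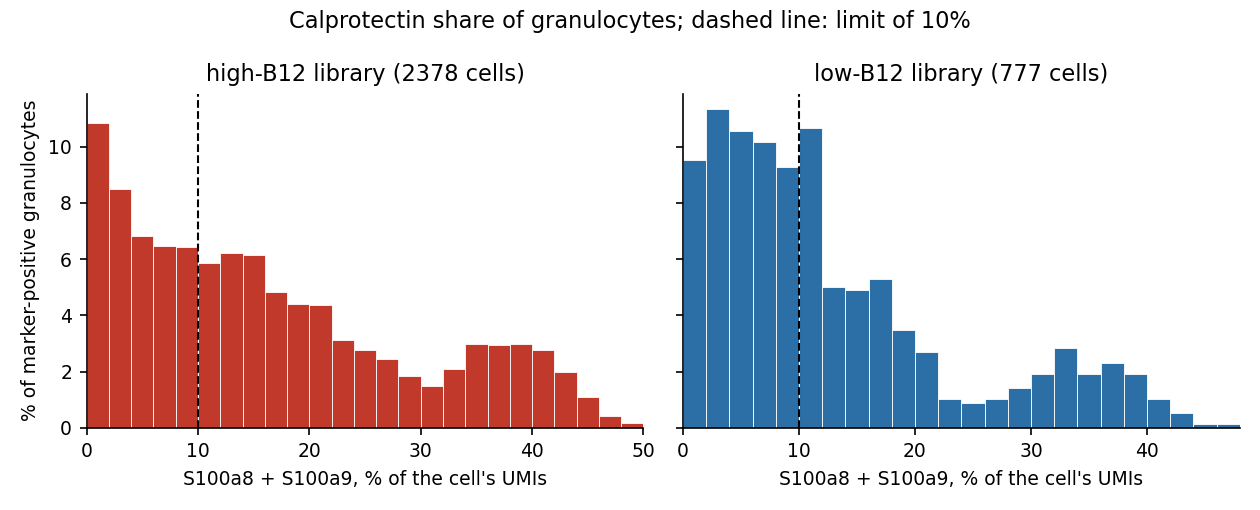
Share of each marker-positive granulocyte's UMIs that came from S100a8 and S100a9 (horizontal axis, percent, in steps of 2%), as percent of the 2378 high-B12 cells (left) and 777 low-B12 cells (right). Bars run through the dashed 10% limit without a gap, and the low-B12 library holds a larger part of its cells below it.

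A selection of genes outside the rule that neutrophils express describes the label. Il1b, also made by other myeloid cells, had a UMI in 96.6% of high-B12 and 96.7% of low-B12 members, and Mmp9, the gelatinase gene, in 81.6% and 85.6%, against 10.0% of high-B12 and 5.96% of low-B12 B cells for Mmp9. Retnlg had a UMI in 73.7% of high-B12 and 82.9% of low-B12 members, against 19.6% and 6.98% of B cells. Other neutrophil markers varied. Clec4d had a UMI in 76.6% of high-B12 and 83.5% of low-B12 members and Clec4e in 49.7% and 51.2%. G0s2 had one in 34.4% and 32.2%, and Hcar2 in 32.5% and 33.9%. Ly6g, the usual staining antigen, was scarce, with a UMI in 4.76% of high-B12 and 6.50% of low-B12 members, against 2.76% and 1.66% of B cells. The rule itself set the detection of its 4 marker genes. Csf3r had a UMI in 99.1% of high-B12 members and 98.6% of low-B12 members, Cxcr2 in 79.98% and 83.7%, Il1r2 in 80.1% and 82.7% and Hdc in 74.8% and 75.9%. B cells of the same libraries, taken as a measure of free RNA (689 high-B12 cells at a median of 6604 UMIs and 1862 low-B12 cells at 6122), had a Csf3r UMI in 13.5% and 9.24%. All 4 marker genes were detected together in 411 high-B12 members (50.2%) and 197 low-B12 members (53.4%), at medians of 2279 and 2271 UMIs per member. Csf1r, the monocyte and macrophage receptor, is at 0 by the rule. Of 10 eosinophil markers 7, among them Epx, Prg2 and Il5ra, were at 0 UMIs in the members of both libraries. The other 3, Siglecf, Ccr3 and Ear2, summed to 62 UMIs in all high-B12 and 41 in all low-B12 members. In GRCm38 these genes lie at chr4:126024550-126044440 (Csf3r), chr1:74153989-74161246 (Cxcr2), chr1:40074079-40125231 (Il1r2) and chr2:126593667-126619299 (Hdc).

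A few large cells carried RNA of other cell types. With a limit of 10 UMIs over 38 defining markers of other types, set after the data were seen, 23 high-B12 members (2.81%) and 25 low-B12 members (6.78%) stood out. Without them the members made up 11.8% of high-B12 and 5.28% of low-B12 cells, and 37.6% and 49.9% of marker-positive granulocytes. The cells left out held 12.2% of the UMIs of high-B12 members and 24.9% of those of low-B12 members, at medians of 9873 and 10714 UMIs per cell, against 2255 and 2222 UMIs in the other 796 high-B12 and 344 low-B12 members. Levels are UMIs summed over the members of a library, per 1000000 UMIs other than S100a8 and S100a9, and are written as CPM (counts on that scale). Without the other-type cells the summed dendritic cell markers were at 166 CPM in the high-B12 library, against 2344 over all its members, and at 162 in the low-B12 library, against 4414. The progenitor genes Elane, Mpo and Ctsg were then at 0 in both libraries, and the basophil genes Gata2, Cpa3 and Ms4a2 likewise. These progenitor and basophil genes, and Cd74, H2-Aa and H2-Eb1 of the dendritic cell list, are among the 38 markers. The limit itself therefore largely fixed these values, which describe the filter and test nothing. Counts of called genes are therefore given with and without these other-type cells. Levels and ratios of single genes are without them unless stated.

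Of the remaining markers given for these cells, Ptgs2, which encodes the prostaglandin-forming enzyme COX-2, was at 643 CPM in high-B12 members and 691 in low-B12 members. Csf1, the gene of the macrophage growth factor M-CSF (chr3:107741048-107760469), was at 235 CPM in high-B12 and 234 in low-B12 members, and Clec4n, the gene of the fungal-sensing lectin dectin-2 (chr6:123229843-123247021), at 247 in high-B12 and 208 in low-B12 members. None of the 3 ratios reached 1.5-fold; they were 0.93 for Ptgs2 (0.84 to 1.03), 1.00 for Csf1 (0.84 to 1.20) and 1.19 for Clec4n (0.99 to 1.44). Each was found in a minority of members. Over all members a Ptgs2 UMI was present in 26.0% of high-B12 and 33.6% of low-B12 cells (15.3% and 18.7% when each cell was thinned to 500 UMIs), against 2.61% and 2.09% of B cells. A Csf1 UMI was present in 23.2% and 26.3% (7.33% and 4.61% thinned; B cells 4.06% and 3.92%), and a Clec4n UMI in 20.1% and 21.7% (8.55% and 6.23% thinned; B cells 2.47% and 1.88%). The order of the 2 libraries for Csf1 and Clec4n turned with thinning, so no order is read from these shares.

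Csf1 and Clec4n were found in overlapping cells. Among high-B12 members with a Clec4n UMI, 43.3% also had a Csf1 UMI (35.6 to 51.2%), against 18.04% (15.1 to 21.3%) of those without. Among low-B12 members these shares were 38.2% (27.2 to 50.02%) and 24.6% (19.6 to 30.2%), whose intervals overlap. Cells with Clec4n were slightly deeper, at medians of 2371.5 against 2201 UMIs in the high-B12 library and 2343 against 2179 in the low-B12 library. For Ptgs2 the shares lay closer together, and a Csf1 UMI was present in 27.9% of high-B12 members with Ptgs2 against 21.6% of those without, and in 32.5% against 25.2% of low-B12 members.

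To show what goes with low calprotectin, the members were set against calprotectin-high counterparts, the 854 high-B12 and 246 low-B12 cells that met every criterion except that S100a8 and S100a9 made up at least 10% of UMIs. The rule used this contrast, so the values describe it and nothing is tested. Genes with at least 50 UMIs were called where the ratio was at least 2-fold the same way in both libraries. Without other-type cells 74 of 6226 measured genes were higher in members (1.19%) and 33 were lower (0.53%), together 1.72%. Over all members 458 of 6768 genes were higher (6.77%) and 36 lower (0.532%), together 7.3%, and most of these higher calls, led by H2-Aa, H2-Eb1 and Cd74 of antigen presentation, were not made without the other-type cells. The split over all members also moved with the scale, to 685 higher and 19 lower on a scale of all UMIs and to 348 higher and 71 lower with the genes' median ratio set to 1. The median log2 ratio of all measured genes was 0.17 among high-B12 and 0.09 among low-B12 cells, and 2849 genes (45.8%) were above their counterparts in both libraries at any size.

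Retnlg, Lcn2, Lyz2 and Wfdc21 were among the genes lower in members. Retnlg, a resistin-like gene of granulocytes (chr16:48872621-48874496), was at 3006 CPM in high-B12 members against 14339 in their counterparts, and at 3890 in low-B12 members against 11420 in theirs. Lcn2, which encodes the iron-scavenging granule protein lipocalin 2 (chr2:32384633-32388252), was at 373 against 1801 CPM in the high-B12 library and 373 against 1248 in the low-B12 library. The ratio of members over counterparts was 0.21 in the high-B12 library for both genes, and 0.34 for Retnlg and 0.30 for Lcn2 in the low-B12 library. Lyz2, the lysozyme gene, was at 815 against 3329 and 773 against 2378 CPM, and Wfdc21 at 578 against 2380 and 669 against 1688. The collagenase gene Mmp8 and the galectin gene Lgals3 had ratios of 0.39 in the high-B12 library and of 0.48 and 0.49 in the low-B12 library. Of 12 measured secondary granule genes 8 were below the counterparts in both libraries, where 20.1% of all measured genes were, and 3 passed the 2-fold rule (Lcn2, Lyz2 and Ceacam10). Of 18 tertiary granule and secretory vesicle genes 11 were below in both and 1, Mmp8, passed. Of 15 measured neutrophil markers outside the rule 13 were below in both and 1 above, with 4 called lower. Of 7 primary granule genes 3 were above and 3 below in both, with 1 called lower; over all members 4 of 12 were called higher and 1 lower. The formyl peptide receptor gene Fpr1, which senses bacterial peptides, was at 88.7 against 224 CPM in the high-B12 library and 116 against 201 in the low-B12 library, short of 2-fold in the low-B12 library, although over all members it passed the rule. Ly6g, the gene of the antigen used to stain mouse neutrophils, was at 28.8 against 163 and 36.8 against 90.3 CPM.

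Pmaip1, Clec4n, Nr4a1 and Dusp2 were among the genes higher in members. Pmaip1, which encodes the pro-apoptotic protein Noxa, was at 374 CPM in high-B12 members against 93.2 in their counterparts and at 390 in low-B12 members against 112 in theirs, ratios of 4.003 (3.42 to 4.71) and 3.45 (2.65 to 4.61). Clec4n was at 247 against 61.2 and 208 against 64.7 CPM. Nr4a1, an orphan nuclear receptor gene induced within minutes of stimulation, was at 358 against 77.2 and 266 against 97.1 CPM, ratios of 4.62 and 2.72. All 3 genes stood at 2.72 times the counterparts' level or more in each library. Dusp2, the gene of a MAP kinase phosphatase, was at 112 against 25.7 and 113 against 35.8 CPM, and Atf3, a stress-induced transcription factor gene, at 903 against 405 and 1040 against 491. A Dusp2 UMI was present in 9.77% of all high-B12 and 11.7% of all low-B12 members, against 65.6% and 79.6% of B cells. Droplets of at most 50 UMIs, which hold free RNA, had 261 and 422 CPM of Dusp2, above the members. The part of free RNA was not tested. Cd274, which encodes the checkpoint ligand PD-L1, was at 122 against 48.8 and 122 against 59.6 CPM, and Lair1, an inhibitory collagen receptor gene, at 119 against 31.5 and 131 against 52.8. A Cd274 UMI was present in 13.8% of all high-B12 and 14.4% of all low-B12 members, against 31.1% and 26.7% of B cells. The same droplets had 22.2 and 32.6 CPM of Cd274. For Dusp2 and Cd274 the shares in B cells exceed those in members, so B cells are not read as a background for either gene. Foxn3, Gngt2 and Arhgap5 also passed the rule, at 2.18-fold to 2.55-fold. Over all members Atf3, Cd274 and Arhgap5 were short of 2-fold in the low-B12 library. Ccl4, a chemokine gene, was at 1.93-fold and 1.89-fold, just under it. Ptgs2 and Csf1 did not pass the rule. Over all members and all counterparts Ptgs2 was at 597 against 385 CPM in the high-B12 library and 566 against 463 in the low-B12 library. Csf1 was at 209 against 68.8 and 177 against 162. Among the genes that chose the cells, Csf3r was at 3788 against 3502 and 3453 against 4204, and Il1r2 at 1714 against 1320 and 1497 against 1277. Cxcr2 was at 994 against 1299 and 1041 against 1432, and Hdc at 1310 against 1397 and 1214 against 1565.

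Of 21 immediate early genes 17 were above the counterparts in both libraries and 4 passed the 2-fold rule (Nr4a1, Dusp2, Atf3 and Klf4). Over all members 9 of the 21 were above and 8 below in both. Without other-type cells none of 10 heat shock, 15 JAK-STAT and 14 NF-kB genes passed it, whereas over all members 7 of 12 heat shock genes were called higher. The abundant Fos, Junb and Dusp1 lay between 1.02-fold and 1.12-fold. The adhesion list had 12 of 19 genes above in both, where 45.8% of all measured genes were, with Itgb1 and Icam1 past 2-fold, and over all members 10 were above and 8 below. Itga4, which encodes the α4 integrin chain, was at 679 against 305 and 780 against 443 CPM, ratios of 2.23 and 1.76. All 12 measured mitochondrial genome transcripts were above in both libraries, with median log2 ratios of 0.64 and 0.46, and none reached 2-fold in both. Markers of other cell types also moved with this contrast. Of 7 measured monocyte markers, Nr4a1, Klf4 and Ctss were higher and Ly6c2 lower in members of both libraries (Ly6c2 over all members in the high-B12 library only), and of 3 measured B cell markers Bank1 was higher, while Csf1r, Cd79a and Cd79b are at 0 by the rule. The 1 measured eosinophil marker, Siglecf, was above the counterparts in both libraries, at log2 ratios of 1.16 in high-B12 and 0.80 in low-B12 cells. It was short of 2-fold in the low-B12 library. The part of these markers in the result was not tested. Members also held fewer UMIs than counterparts, at medians of 2177 against 2585.5 other than calprotectin in the high-B12 library and 2158 against 2330.5 in the low-B12 library.

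**Figure D2:**
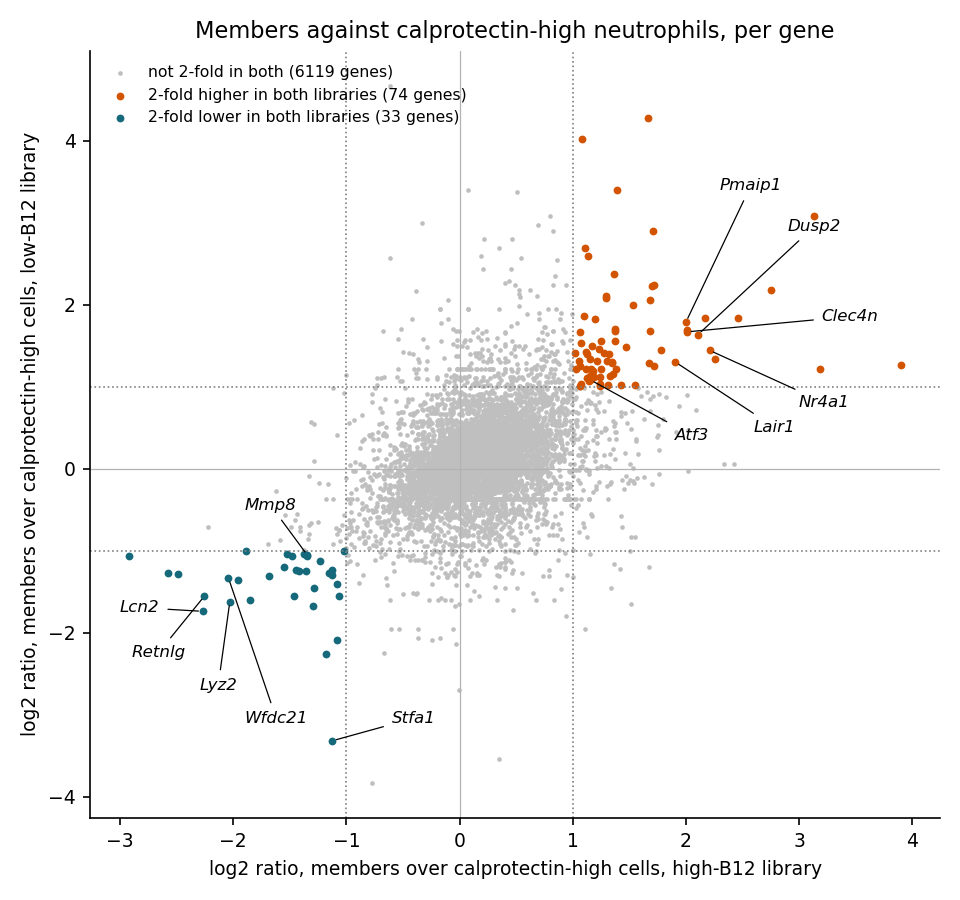
Log2 ratio of each of 6226 measured genes in members over calprotectin-high counterparts, without other-type cells, in the high-B12 library (horizontal axis) and the low-B12 library (vertical axis), with dotted lines at 2-fold. The 74 genes higher in both libraries include Pmaip1, Clec4n, Nr4a1 and Dusp2, and the 33 lower in both include Retnlg, Lcn2, Lyz2 and Stfa1.

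Promoters are shown for 3 genes of these results, the immediate early genes Nr4a1 and Atf3 and the marker gene Ptgs2. They are RefSeq sequences in GRCm38.p6 from 250 bases before to 50 bases after the start RefSeq gives, at chr15:101266596-101266895 (Nr4a1, plus strand), chr1:191183284-191183583 (Atf3, minus strand) and chr1:150099781-150100080 (Ptgs2, plus strand). The Nr4a1 window lies inside the GENCODE gene, which spans chr15:101254269-101274795, at a start downstream of that gene's first base. Each is written 5′ to 3′ on the strand of the gene, with capitals on the half-site CGTCA of the cyclic AMP response element, read on both strands.
Nr4a1: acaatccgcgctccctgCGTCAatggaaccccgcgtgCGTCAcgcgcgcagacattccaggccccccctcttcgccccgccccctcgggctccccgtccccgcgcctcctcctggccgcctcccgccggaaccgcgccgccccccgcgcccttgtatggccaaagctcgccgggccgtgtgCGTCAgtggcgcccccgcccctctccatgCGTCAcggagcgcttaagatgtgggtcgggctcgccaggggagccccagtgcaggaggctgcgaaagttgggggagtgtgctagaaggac
Atf3: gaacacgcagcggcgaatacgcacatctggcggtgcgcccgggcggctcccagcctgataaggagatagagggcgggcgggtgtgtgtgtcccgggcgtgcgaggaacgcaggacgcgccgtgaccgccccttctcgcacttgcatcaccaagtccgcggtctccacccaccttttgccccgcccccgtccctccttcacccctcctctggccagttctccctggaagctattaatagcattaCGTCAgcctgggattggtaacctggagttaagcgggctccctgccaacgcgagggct
Ptgs2: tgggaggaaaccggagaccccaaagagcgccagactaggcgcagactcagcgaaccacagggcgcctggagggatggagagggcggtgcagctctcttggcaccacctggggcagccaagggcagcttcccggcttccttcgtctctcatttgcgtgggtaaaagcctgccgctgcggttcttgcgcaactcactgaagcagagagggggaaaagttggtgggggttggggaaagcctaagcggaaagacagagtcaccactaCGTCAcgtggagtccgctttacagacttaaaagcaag
Nr4a1 held 4 matches, beginning 233, 213, 69 and 40 bases before the start, Atf3 held 1 at 7 bases before it, and Ptgs2 1 at base 14 after it. None of the 3 held the AP-1 motif TGANTCA on either strand. The half-site matched in 22 of 71 promoters (31.0%) found for 52 of the 74 genes higher in members, in 6 of 39 promoters (15.4%) of the lower genes, in 34.1% of promoters of all measured genes and in 20.8% of the 32851 promoters in the table. The share in the higher genes was thus no greater than in measured genes at large. The AP-1 motif matched in 4 of the 71 promoters (5.63%) and in 5.03% of those of measured genes. A match describes letters in this window and is not evidence of binding.

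Some of these genes graded with calprotectin within the members, and others did not. The rule used this calprotectin share, and the same members were set against the counterparts above. The grading is therefore description and no separate test of that contrast. The 796 high-B12 and 344 low-B12 members were split at 2.5, 5 and 7.5% calprotectin into 263, 205, 150 and 178 high-B12 cells and 70, 93, 93 and 88 low-B12 cells. Retnlg was at 1212, 2444, 4026 and 4729 CPM from the lowest to the highest step of high-B12 members, and at 1311, 2920, 3748 and 6711 in the low-B12 library. It was higher at each step in both libraries, and so were Lcn2, Lyz2, Wfdc21 and Hp, the haptoglobin gene. Mmp8 was higher at each step in low-B12 members only, and Ly6g in neither library. Clec4n ran the other way, at 467, 252, 154 and 77.4 CPM in high-B12 and 468, 186, 144 and 135 in low-B12 members. Pmaip1 was at 556, 401, 256 and 242 in high-B12 members, and at 664, 481, 243 and 284 in low-B12 members. Atf3 and Itga4 were lower at each step in both libraries. Nr4a1, Dusp2 and Lair1 were so in high-B12 members alone, with Dusp2 at 289, 52.4, 117 and 59.9 CPM in low-B12 members. Cd274 had no steady order in either library, at 257, 82.4, 53.3 and 70.4 CPM in high-B12 and 164, 76.2, 211 and 44.9 in low-B12 members. Csf3r, by contrast, stayed between 4087 and 4424 CPM in high-B12 and between 4142 and 4739 in low-B12 members. Cxcr2, Il1r2, Il1b and Ptgs2 likewise showed no steady order. Csf1 was at 337, 214, 194 and 178 CPM in high-B12 members, whereas in low-B12 members it was at 211, 329, 216 and 170. The lowest step also held fewer UMIs per cell, at a median of 1742 other than calprotectin in high-B12 and 1844 in low-B12 members, and the part of depth in these orders was not tested.

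**Figure D3:**
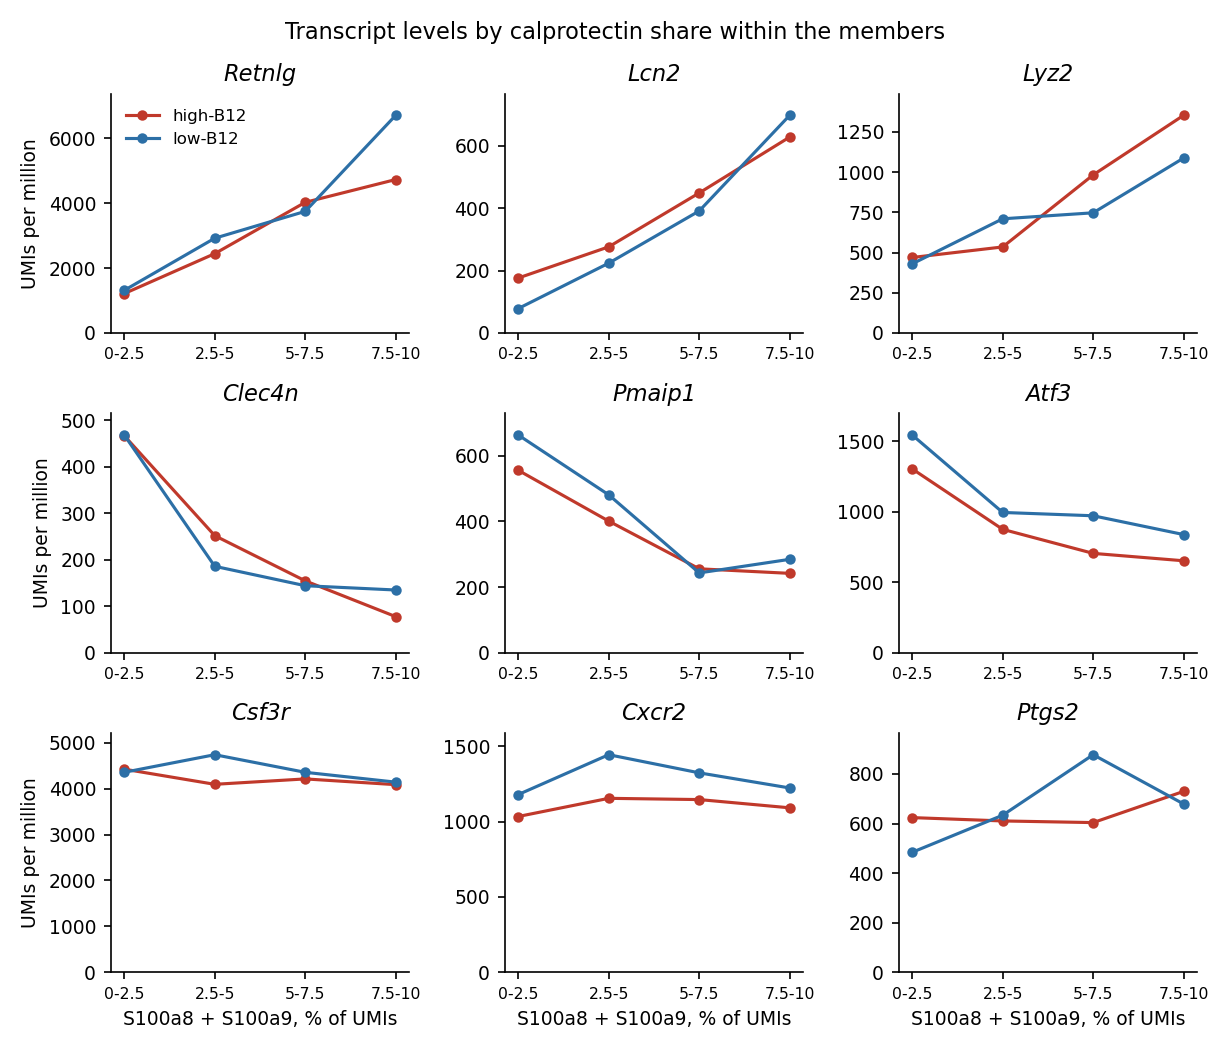
Level of 9 genes in CPM of UMIs other than S100a8 and S100a9 (vertical axes from 0) at 4 steps of calprotectin share (horizontal axes, percent of UMIs), summed over members without other-type cells in the high-B12 library (red) and the low-B12 library (blue). Retnlg, Lcn2 and Lyz2 are higher and Clec4n and Atf3 lower at each step in both libraries, Pmaip1 is so in high-B12 members only, while Csf3r, Cxcr2 and Ptgs2 show no steady order.

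Between treatments the interferon-induced gene Ifi27l2a and the co-receptor gene Cd14 were among the genes higher in high-B12 members, and the glucocorticoid-induced genes Tsc22d3 and Fkbp5 among the lower ones. With a limit of 1.5-fold and at least 50 UMIs, 273 of 4829 measured genes were higher in the high-B12 library (5.65%) and 176 lower (3.64%), together 9.3%, without other-type cells. Over all members 238 of 5568 were higher (4.27%) and 482 lower (8.66%), together 12.9%, and 87 of those 482 (18.05%) were also lower without other-type cells. With each cell weighted the same the split over all members was 385 higher and 377 lower. None of the 27 ribosomal protein genes among the 482 was lower past the limit without other-type cells. Without other-type cells both of 2 measured NK cell markers, Ccl5 and Gzma, were above 1.5-fold, with a summed level of that list of 93.4 CPM in high-B12 and 51.3 in low-B12 members, and their part in the differences was not tested. Most calls are of scarce genes, and at a minimum of 100 UMIs 297 of the 720 calls over all members were left.

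Ifi27l2a, an interferon-induced gene (chr12:103442167-103443680), was at 959 CPM in high-B12 members and 371 in low-B12 members, a ratio of 2.59 (2.28 to 2.94). It was at 916 and 350 over all members, with a UMI in 39.2% of high-B12 and 23.6% of low-B12 cells (21.2% and 10.6% thinned). B cells carry this gene too, in 68.1% of high-B12 and 60.3% of low-B12 B cells, so they give no background for it. Droplets of at most 50 UMIs, which hold free RNA, had 1361 CPM in the high-B12 library and 1120 in low-B12 droplets, a level above that of the members, and the part of free RNA in the ratio was not tested. The calprotectin-high counterparts had 902 and 465 CPM, so the direction was shared. Cd14, the lipopolysaccharide co-receptor gene, was at 140 in high-B12 and 64.4 in low-B12 members (2.18-fold, 1.60 to 3.03). Map3k8, a kinase gene of inflammatory signalling, was at 170 in high-B12 and 86.8 in low-B12 members (1.96-fold). The antiviral gene Samd9l was at 119 in high-B12 and 61.8 in low-B12 members (1.93-fold), and the hexokinase gene Hk2 at 122 in high-B12 and 71.0 in low-B12 members (1.71-fold). Slc16a6, Tex14, Snhg9, Hist1h1e and Hist1h2ap were 1.76-fold to 2.26-fold higher (Tex14 1.42-fold over all members), and Ccrl2, Crlf2, Cln3 and Klf10, named from all members, 1.52-fold to 1.68-fold. Hist1h2ap had a ratio of 0.80 over all members, where 1 low-B12 cell held 66.0% of its low-B12 UMIs.

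Stfa1, a protease inhibitor gene of the stefin family, had the largest ratio of the genes named, at 125 CPM in high-B12 and 27.6 in low-B12 members (4.53-fold, 2.89 to 7.47). Over all members its ratio was 2.73 (1.95 to 3.91), from 213 UMIs in high-B12 and 41 in low-B12 members. A UMI was present in 3.91% of all high-B12 and 2.98% of all low-B12 members, and 1 cell held 36.6% of the 41 low-B12 UMIs. Its calprotectin-high counterparts were at 273 CPM in the high-B12 library and 281 among low-B12 cells. Camp, a secondary granule gene limited by the rule, had a UMI in 22.1% of high-B12 and 6.78% of low-B12 members, and 29.6% of high-B12 and 9.77% of low-B12 B cells had one at their greater depth. Over all members it was at 105 CPM in the high-B12 library and 26.5 among low-B12 members, and droplets of at most 50 UMIs had 9136 and 3567 CPM; the part of free RNA was not tested. Mcpt8 and Prss34, granule protease genes of basophils, had 250 and 201 UMIs in all high-B12 members and 0 in low-B12 members, and 97.2% and 100% of these sat in 1 cell. Elane, Mpo, Prtn3 and Ctsg, protease and peroxidase genes of granulocyte progenitors, were at 10.3 CPM or less over all high-B12 members and at 382, 241, 284 and 129 over all low-B12 members, with at least 99.7% of the low-B12 UMIs of each in 1 cell. The ratios of these 6 genes over all members thus rest on single cells.

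Tsc22d3 and Fkbp5, of the glucocorticoid list, were lower in high-B12 members. Tsc22d3, the gene of a leucine zipper protein induced by glucocorticoids (chrX:140539528-140600659), was at 490 CPM in high-B12 members and 815 in low-B12 members, a ratio of 0.60 (0.54 to 0.67). It had a UMI in 54.6% of all high-B12 and 71.0% of all low-B12 members, and in 19.9% and 29.5% after thinning, while 60.1% of high-B12 and 59.1% of low-B12 B cells, which carry the gene themselves, had one. Fkbp5, the gene of a glucocorticoid receptor co-chaperone, was at 57.6 CPM in high-B12 and 101 in low-B12 members, and the circadian gene Per1 at 85.2 and 120. Of 11 measured genes of this list 10 were lower in the high-B12 library, where 52.1% of all measured genes were, and 3 (Tsc22d3, Fkbp5 and Zbtb16) reached 1.5-fold. The median log2 ratio of the list was −0.39, beside −0.02 for all measured genes. Over all members 10 of 12 were lower, the median was −0.20 beside −0.04, and 2 genes reached 1.5-fold. Tsc22d3 was then at a ratio of 0.67 (0.60 to 0.74), just short of that limit. The calprotectin-high counterparts had 411 and 739 CPM of Tsc22d3, so this direction was shared as well.

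Of 9 measured chaperone genes 7 were lower, where 52.1% of all measured genes were, at a median log2 ratio of −0.26. Past 1.5-fold 2 were lower and 1 higher, Hsp90b1, an endoplasmic reticulum chaperone gene at 50.5 CPM in high-B12 and 31.5 in low-B12 members, whose ratio over all members was 0.85. Hspa1b, an inducible Hsp70 gene, was at 66.4 CPM in high-B12 and 117 in low-B12 members, and Dnajb1, its partner, at 173 and 279. Over all members Hspa1b was at 197 and 431 CPM, and free RNA held 878 in the high-B12 library and 1356 among low-B12 droplets. Over all members 12 of 12 measured genes of the list were lower, where 54.5% of all genes were. Other genes named as lower were Mpp1 (91.0 CPM in high-B12 and 172 in low-B12 members), Tmx4, Kif2a, Itprip, Lasp1, Arhgap18, Rilpl2 and Apoe, with ratios between 0.53 and 0.65. Over all members Lasp1, Arhgap18, Rilpl2 and Apoe did not reach 1.5-fold. Apoe was at 107 CPM in high-B12 and 171 in low-B12 members, while droplets of at most 50 UMIs held 832 and 1235. For Dnajb1 these droplets held 389 and 600 CPM. The part of free RNA in these ratios was not tested. Mitochondrial genome transcripts were lower in 11 of 12, at a median log2 ratio of −0.28, with none at 1.5-fold, while 26 of 33 nuclear respiratory chain genes were higher, at a median of 0.09, which was −0.10 over all members. Across whole libraries the median mitochondrial share was lower too, at 1.38% of UMIs in high-B12 cells and 2.17% in low-B12 cells.

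**Figure D4:**
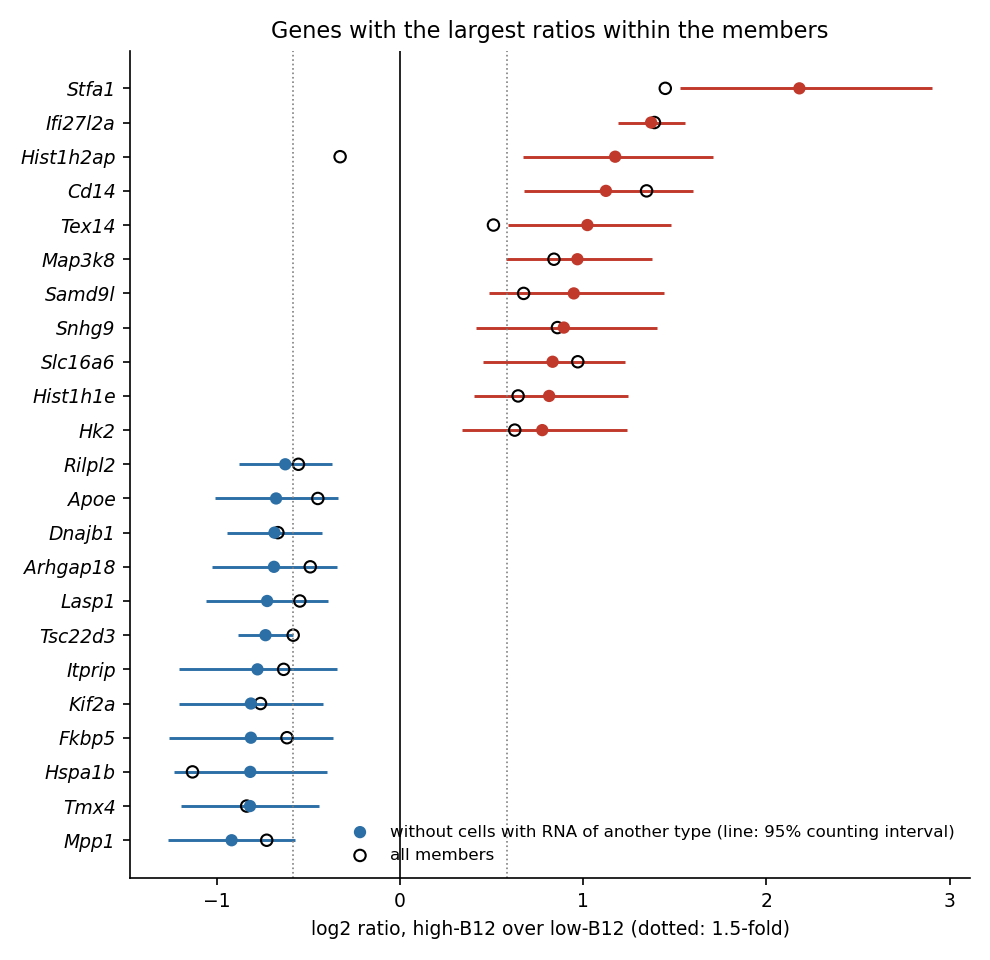
Log2 ratio high-B12 over low-B12 (horizontal axis) of the genes named for the largest ratios among members without other-type cells (filled points, lines the 95% counting intervals), with the ratio over all members as open circles and dotted lines at 1.5-fold. Stfa1 and Ifi27l2a lead the higher genes, Mpp1 and Tmx4 the lower ones, and Hist1h2ap lies on opposite sides of 0 in the 2 sets of cells.

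Type I interferon genes were mostly higher in high-B12 members although the rule removed cells with 5 or more UMIs of 5 interferon genes. Of 27 measured genes outside the rule 23 were higher, where 47.9% of all measured genes were, and 5 reached 1.5-fold, at a median log2 ratio of 0.19. Irf7, the transcription factor gene that amplifies interferon production, was at 91.6 CPM in high-B12 and 36.8 in low-B12 members, and Isg20, an antiviral exonuclease gene, at 44.0 and 27.6. Ifitm3, which encodes a membrane protein that blocks virus entry, was at 567 and 423. Over all members 26 of 31 genes were higher, where 45.5% of all genes were, and the median was 0.31. The members still lay far below interferon-high counterparts, the 90 high-B12 and 25 low-B12 cells past that limit. Of 5019 genes measured in that contrast, which the rule used, 74 were lower in members of both libraries (1.47%) and 71 higher (1.41%), together 2.89%. At any size 25.2% were lower in both and 26.1% higher. Over all members 103 of 5873 were lower (1.75%) and 59 higher (1%), together 2.76%. The viral sensor gene Ddx60 was at 86.9 CPM in high-B12 members against 532 in their counterparts and at 77.6 in low-B12 members against 475 in theirs. Oasl1 was at 58.7 against 360 and 47.3 against 455.

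Genes of cytokines and their receptors went both ways between treatments, with more receptor genes lower than higher in high-B12 members. Il1b, the interleukin 1β gene, was the most abundant cytokine transcript named, at 5389 CPM in high-B12 and 6431 in low-B12 members, a ratio of 0.84 (0.81 to 0.87). The chemokine genes Ccl3 and Ccl4 were at 1178 and 439 CPM in high-B12 members and at 795 and 368 in low-B12 members, and Cxcl2 at 1814 in both. Cxcr4, the receptor gene that holds neutrophils in the marrow, was at 551 CPM in high-B12 and 720 in low-B12 members, and Cxcr2 at 1103 and 1305. Csf3r was at 4208 and 4405, a ratio of 0.96 (0.92 to 1.00). Of 18 measured cytokine receptor genes outside the rule 13 were lower, where 52.1% of all measured genes were, and none reached 1.5-fold. The median log2 ratio of these receptor genes was −0.15, beside −0.02 for all measured genes. Over all members 11 of the 18 were lower, where 54.5% of all genes were, at a median of −0.04. Of 21 immediate early genes 11 were higher and 10 lower, with Egr1, a growth-induced transcription factor gene, at 913 and 569 CPM and Jun at 3889 and 2717.

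Itgam, the gene of the sorting antigen, and Tet2 were close in level between the libraries. Itgam was at 629 CPM in high-B12 and 645 in low-B12 members. Tet2, which encodes an enzyme that oxidises methylated cytosine, was at 175 and 187, a ratio of 0.94 (0.77 to 1.15). A 3′ count does not show whether the allele is intact. Mtr, the gene of the B12-dependent methionine synthase, had 11 UMIs in all high-B12 and 21 in all low-B12 members, a ratio of 0.28 (0.12 to 0.60). A Mtr UMI was present in 0.977% of all high-B12 and 5.15% of all low-B12 members (0.244% and 0.542% thinned). Without other-type cells Mtr had 6 high-B12 and 8 low-B12 UMIs. That ratio was 0.335, and its interval included equal levels, so no difference is read from Mtr. Members' counts of Mtr were under the 50-UMI minimum, and a UMI was present in 12.9% of high-B12 and 14.1% of low-B12 B cells. Tcn2, which encodes the B12 carrier transcobalamin, was at 90.4 and 97.3 CPM, and Lmbrd1, which encodes a lysosomal B12 exporter, at 53.4 and 44.7.

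**Figure D5:**
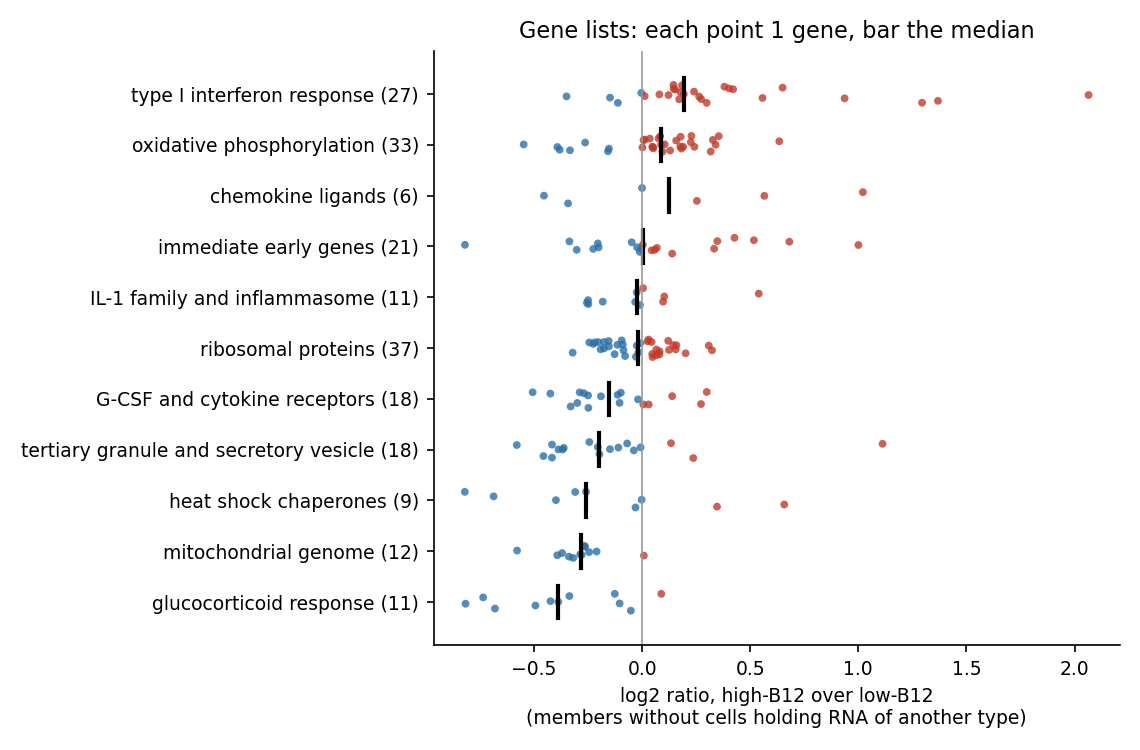
Log2 ratio high-B12 over low-B12 (horizontal axis) in members without other-type cells for the measured genes of 11 lists, each point 1 gene (red higher, blue lower in high-B12 members) and each bar the list's median, with genes of the selection rule left out. The type I interferon list has its median at 0.19 and the glucocorticoid list at −0.39, while the immediate early genes lie on both sides of 0.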

How the data were processed

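The authors deposited raw UMI counts per gene and barcode, empty droplets included (1053362 barcodes and 46994991 UMIs in the high-B12 library, 1256219 and 48884220 in the low-B12 library). Per the file headers the matrices came from Cell Ranger 4, while version 2.1.1 is recorded in the submitters' processing notes. The labels name a 10x 3′ v2 kit, but the barcodes outnumber those of that version, so the kit is uncertain. No genome build is given in the sources used here, and of 32285 gene IDs 99.6% occur in GENCODE M21, the source of gene positions in GRCm38. The members and the 47 gene lists were chosen with earlier results of these data known, and cells were kept whatever their doublet call; Scrublet in scanpy 1.11.5 called 12 high-B12 and 16 low-B12 members. No column was left unused.

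UMIs were summed per library and scaled to 1000000 UMIs (CPM) other than S100a8 and S100a9. Ratios carry exact conditional binomial intervals, shares exact Clopper-Pearson intervals, and log2 ratios 0.5 added UMI. Genes named were up to 12 each way with the largest ratio, at 100 CPM or more in a library and an interval excluding 1.25, up to 5 genes of each list discussed at 50 CPM or more, and always the markers, S100a8, S100a9, Il1b, Tet2, Mtr and Itgam. Mitochondrial, ribosomal protein, haemoglobin, immunoglobulin and predicted genes were left out of the first group. For contrasts with counterparts the smaller of both libraries' ratios was ranked. The same rule was repeated without other-type cells. Other genes named, such as Itga4, Ly6g, Fpr1, Ctss, Bank1, Hp, Fos and list members under 50 CPM, were chosen after their values were seen. The scripts were tested on simulated counts. Alternatives changed doublets, cell limits, marker and calprotectin limits, scaling, cell weights, depth and the gene minimum. Python 3.11.15, numpy 2.4.6, scipy 1.17.1 and pandas 2.3.3 were used.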

Additional observations from a re-analysis of the deposited data

How the results depend on the processing

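No paired analysis was possible because each treatment has 1 library and the labels carry no replicate numbers. Of the values of single genes followed, 648 moved by less than their counting interval under the alternatives, 107 moved further and 9 changed sign; of list medians 458 moved less than that and 31 further. Leaving out cells with RNA of another type, an alternative added after seeing the data, gave 449 in place of 720 genes past 1.5-fold between libraries (273 higher and 176 lower, in place of 238 and 482) and 107 in place of 494 genes past 2-fold against calprotectin-high counterparts (74 higher and 33 lower, in place of 458 and 36), with log2 ratios of 0.060 for Prtn3, 0.42 for Immp2l, 0.42 for Adgrl3 and 0.53 for Ifi30, each below 0 over all members. Without those cells Prtn3, Immp2l and Adgrl3 had 3, 4 and 13 high-B12 UMIs and 1, 1 and 4 low-B12 UMIs, under the 50-UMI minimum. Ifi30 had 40 and 12, and the interval of its ratio (0.77 to 3.12) includes 1. A calprotectin limit of 5% gave share differences of 4.32 and −3.58 points, and log2 ratios of 0.63 for Elane, 2.501 for Mpo, 1.36 for Prtn3 and 4.40 for Ctsg. At the limit of 10% these genes had only 1, 5, 6 and 20 UMIs in all high-B12 members. At least 99.7% of the low-B12 UMIs of each sat in 1 cell. The cause of these sign changes was not tested. Scrublet doublets left out gave 307 genes against calprotectin-high counterparts, and each cell weighted the same gave 255. Cells thinned to 500 UMIs gave 234, 56 and 48 genes between libraries, against calprotectin-high and against interferon-high counterparts, and 0.27 for Ifi30. A minimum of 20 UMIs per gene gave 1700, 1008 and 384 genes, and of 100 UMIs 297, 271 and 79, in place of 720, 494 and 162. The causes of these shifts were not tested, beyond the fewer genes tested under a higher minimum or thinning. Depth limits scarce genes, since ratios of genes near the minimum of 50 UMIs have wide counting intervals, and with 1 library per treatment the spread between mice is unknown.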
